A study of Mus musculus with 8 samples.

Results

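The cation-chloride cotransporters examined here are 5 genes of the Slc12 family: Slc12a2, Slc12a4, Slc12a5, Slc12a7 and Slc12a9. They were chosen by gene symbol, matched from the RefSeq accession carried by each array probe, and every matching probe was kept. Slc12a5 had 2 probes and each other member had 1, so the 5 genes, of 20283 genes with a symbol on the array, were read by 6 of its 39429 gene probes. The study compared a pair of layers of the developing cortex in ICR mouse embryos at embryonic day 16. The V/SVZ (ventricular and subventricular zone, 4 samples) borders the ventricle and contains proliferating radial glia and intermediate progenitors. The CP (cortical plate, 4 samples) is the layer in which postmitotic neurons come to rest, and each layer was isolated by manual dissection. The labels name no treatment, transgene or allele in either layer. Nothing in them states that different animals gave the samples of a layer, so the errors and p-values below may reflect technical spread alone.

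Cation-chloride cotransporters move chloride across the cell membrane together with sodium and potassium, or with potassium alone, and so set the intracellular chloride level and help to set cell volume. Slc12a2 encodes NKCC1, which loads cells with chloride. Slc12a5 encodes KCC2, the neuronal potassium-chloride exporter, and Slc12a4 (KCC1) and Slc12a7 (KCC4) encode related exporters found more widely. In immature neurons chloride is high and GABA can depolarize the cell. As KCC2 rises during maturation chloride falls and GABA becomes inhibitory.

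RefSeq promoter windows (build GRCm38.p6, 250 bases before to 50 after an annotated start) were matched for 4 of the 5 members. They gave 6 windows. The selection left out a chromosome and held no window of Slc12a2, so whether that gene has an entry was not examined. Shown are both starts of Slc12a5, the member highest in CP relative to V/SVZ, and a start of Slc12a7, the member furthest the other way, followed by that of Slc12a9. Each is written 5′ to 3′ on the strand of the gene, and capitals mark the E-box CACGTG, a palindrome that factors such as Usf1 and Usf2 can bind.
Slc12a5, chr2:164960596-164960895, plus strand: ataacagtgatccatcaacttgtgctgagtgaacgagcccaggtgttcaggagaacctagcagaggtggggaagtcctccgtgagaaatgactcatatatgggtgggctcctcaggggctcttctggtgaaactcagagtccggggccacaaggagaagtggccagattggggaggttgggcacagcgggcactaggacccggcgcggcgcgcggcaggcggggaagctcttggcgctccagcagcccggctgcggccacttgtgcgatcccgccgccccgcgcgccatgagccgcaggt
Slc12a5, chr2:164967738-164968037, plus strand: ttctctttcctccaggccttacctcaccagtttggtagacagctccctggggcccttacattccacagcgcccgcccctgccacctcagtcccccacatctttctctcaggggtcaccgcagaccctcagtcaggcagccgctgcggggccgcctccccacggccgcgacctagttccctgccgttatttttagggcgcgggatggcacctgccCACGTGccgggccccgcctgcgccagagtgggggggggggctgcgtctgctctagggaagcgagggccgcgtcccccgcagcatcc
Slc12a7, chr13:73763410-73763709, plus strand: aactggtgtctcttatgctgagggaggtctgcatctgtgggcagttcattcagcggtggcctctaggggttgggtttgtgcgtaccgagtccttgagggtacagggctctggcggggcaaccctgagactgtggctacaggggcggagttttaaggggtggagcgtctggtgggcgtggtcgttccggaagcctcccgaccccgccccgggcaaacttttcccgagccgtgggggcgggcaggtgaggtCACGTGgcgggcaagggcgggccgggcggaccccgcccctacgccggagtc
Slc12a9, chr5:137333533-137333832, minus strand: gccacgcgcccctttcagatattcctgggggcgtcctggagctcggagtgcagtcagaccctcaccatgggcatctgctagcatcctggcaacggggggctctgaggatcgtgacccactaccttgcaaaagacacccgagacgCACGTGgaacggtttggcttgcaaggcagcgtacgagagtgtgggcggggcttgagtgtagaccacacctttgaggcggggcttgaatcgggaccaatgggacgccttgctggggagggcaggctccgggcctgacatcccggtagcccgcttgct

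CACGTG was present in 4 of the 6 member windows, against 7.15% of 32851 windows of the same length. The 4 were the downstream start of Slc12a5, both overlapping windows of Slc12a7, which share the site, and Slc12a9. The upstream Slc12a5 start and Slc12a4 had none. The GC box GGGCGG, on either strand, was in all 6 member windows and in 35.7% of windows overall. GCGNGGGCG, a site of Egr factors that can overlap a GC box, was in none of the 6 and in 5.55% of windows. Windows of the members held 63% to 69.3% G and C. The motifs were chosen after these windows had been read, and a match describes letters, not a bound site. Slc12a5, with CACGTG at its downstream start only, was higher in CP at its bright probe, and Slc12a7, also with CACGTG, was higher in V/SVZ. Whether the site bears on either difference was not tested.

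The 8 arrays were 1-colour Agilent arrays, each layer on a slide of its own (slide 1 for V/SVZ, slide 2 for CP), so slide and tissue cannot be told apart. Between 58.4% and 62.9% of gene probes were well above background per array. Marker genes followed the labels. V/SVZ held the higher values for 9 of 9 radial glia markers and 5 of 5 intermediate progenitor markers (Eomes 336-fold). Pax6 was at least 105-fold higher in V/SVZ at its brightest probe, with a second probe at 3.71 on the log2 scale. CP held the higher values for 7 of 8 markers of postmitotic cortical neurons (Mapt 8.16-fold). The authors' deposited table goes the other way. Its columns named V/SVZ hold Slc12a5 (A_52_P557129) at 1.41, 1.33, 1.35 and 1.21 and those named CP at -1.42, -1.41, -1.21 and -1.88 on its centred log2 scale, so directions here follow the scanner files and are opposite to that table's column names. The 7 spike-in RNAs detected on all arrays differed between the slides by -0.05 to 0.16 on the scaled log2 scale, which bears on the small differences below. Dim spike-ins, not detected on all arrays, differed by -0.45, -0.35 and 0.17.

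The members split into a strong CP gene, a strong V/SVZ gene and smaller V/SVZ differences. All 6 member probes were well above background on all 8 arrays, and 5 passed the test (limma adjusted p under 0.05): Slc12a2, Slc12a4, Slc12a7 and Slc12a9 higher in V/SVZ and 1 of the 2 Slc12a5 probes higher in CP. Of all 23853 probes tested, 79.7% passed, with the higher value in V/SVZ for 35.2% and in CP for 44.4%. Of the members a like share passed. The members' median difference at the brightest probe was 0.34 on the log2 scale, beside -0.09 over all genes. In 4 of the 6 probes the arrays of the tissues did not overlap, beside 75.5% of all probes tested.

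**Figure D1:**
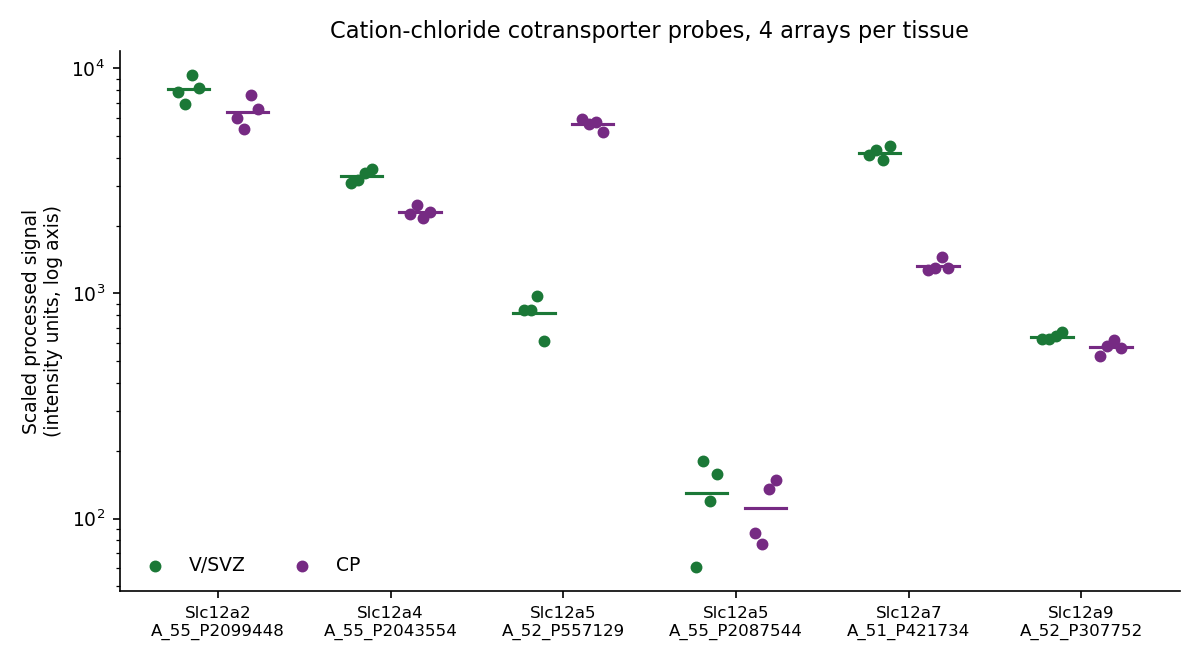
Scaled processed signal (intensity units, log axis) of each cotransporter probe on the 4 V/SVZ arrays (green) and the 4 CP arrays (purple), with horizontal lines at the tissue means. The bright Slc12a5 probe lies between 5207 and 5989 in CP and between 613 and 970 in V/SVZ, Slc12a7 shows the opposite order, and the tissues overlap for Slc12a2 and the dim Slc12a5 probe.

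Slc12a5 had the largest difference of the members. Its brighter probe, A_52_P557129, read 841, 844, 970 and 613 in V/SVZ and 5989, 5676, 5759 and 5207 in CP, in intensity units scaled to a common 75th percentile. Every CP array lay far above every V/SVZ array, and V/SVZ 4 was the lowest. The log2 difference, V/SVZ minus CP, was -2.81 ± 0.13 (SE, n = 4 per tissue), which is 7.01-fold higher in CP (95% confidence interval 5.66 to 8.68, limma adjusted p = 2.67e-07). A difference at least this large towards CP was seen in 3.52% of the probes tested. In V/SVZ the probe was still well above background on all 4 arrays. In bulk tissue, fewer cells that express a gene and less RNA per cell cannot be told apart.

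The second Slc12a5 probe, A_55_P2087544, carries the same accession but did not show this difference. It was dim, at 61, 181, 120 and 157 in V/SVZ and 86, 77, 135 and 148 in CP, and the arrays of the tissues overlapped. Its log2 difference was 0.17 ± 0.37 SE (95% confidence interval -0.69 to 1.03, limma adjusted p = 0.688), an interval that does not reach the -2.81 of the bright probe. With the mean of both probes as the value of Slc12a5, the difference was -1.32 (adjusted p = 0.00019). The files give no probe sequences, so which part of the transcript each probe reads was not analysed here.

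Slc12a7, which encodes the exporter KCC4, was the member furthest towards V/SVZ. It read 4139, 4350, 3931 and 4499 in V/SVZ and 1272, 1296, 1452 and 1296 in CP. The tissues were fully apart, with CP 3 a little above the other CP arrays. The log2 difference of 1.67 ± 0.06 SE is 3.18-fold (95% confidence interval 2.89 to 3.51, limma adjusted p = 5.49e-08). Of the probes tested, 8.52% were at least this far towards V/SVZ.

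Slc12a4, which encodes the widely expressed exporter KCC1, differed in the same direction by less. Its values were 3103, 3196, 3435 and 3556 in V/SVZ and 2253, 2474, 2170 and 2311 in CP, again without overlap. This is 1.44-fold higher in V/SVZ, a log2 difference of 0.53 ± 0.06 SE (limma adjusted p = 6.54e-05). The potassium-chloride exporters among the members therefore did not move as a group: Slc12a4 and Slc12a7 were higher in V/SVZ, and the bright probe of Slc12a5 was higher in CP.

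Slc12a2, which encodes the chloride importer NKCC1, was bright in both tissues and differed little. It read 7840, 6981, 9319 and 8185 in V/SVZ and 6000, 5383, 7616 and 6588 in CP. The tissues overlapped, since CP 3 lay above V/SVZ 2, but each of the 4 V/SVZ arrays lay above the CP array of the same number. The difference was 0.34 ± 0.12 SE on the log2 scale, 1.27-fold (95% confidence interval 1.04 to 1.55, limma adjusted p = 0.0334). With the replicate number as a block the difference was the same 0.34 at an adjusted p of 0.000723 (limma), the lowest of any setting. That number is also the position on the slide, and the labels do not state that same-numbered arrays share animals. Without the block, the call was lost with spike-in scaling (0.27, adjusted p = 0.0791), with no filter on dim probes (adjusted p = 0.0525), with array weights (0.20, adjusted p = 0.129) and without any 1 of V/SVZ 1, V/SVZ 3, V/SVZ 4, CP 1, CP 2 or CP 4 (adjusted p from 0.0535 to 0.0806).

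Slc12a9, an orphan member of the family with no settled transport activity, was the least different of the called members. It read 627, 625, 644 and 677 in V/SVZ and 527, 583, 624 and 570 in CP. The tissues were barely apart, the lowest V/SVZ array at 625 and the highest CP array at 624. The log2 difference of 0.16 ± 0.06 SE (1.12-fold, limma adjusted p = 0.0309) was no larger than the largest difference, 0.16, of the spike-ins detected on all arrays. The call was lost with spike-in scaling (0.09, adjusted p = 0.142), after normexp background correction (0.12, adjusted p = 0.0716), with no filter (adjusted p = 0.0585) and without V/SVZ 3, V/SVZ 4, CP 1, CP 2 or CP 4 (adjusted p from 0.053 to 0.0756).

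**Figure D2:**
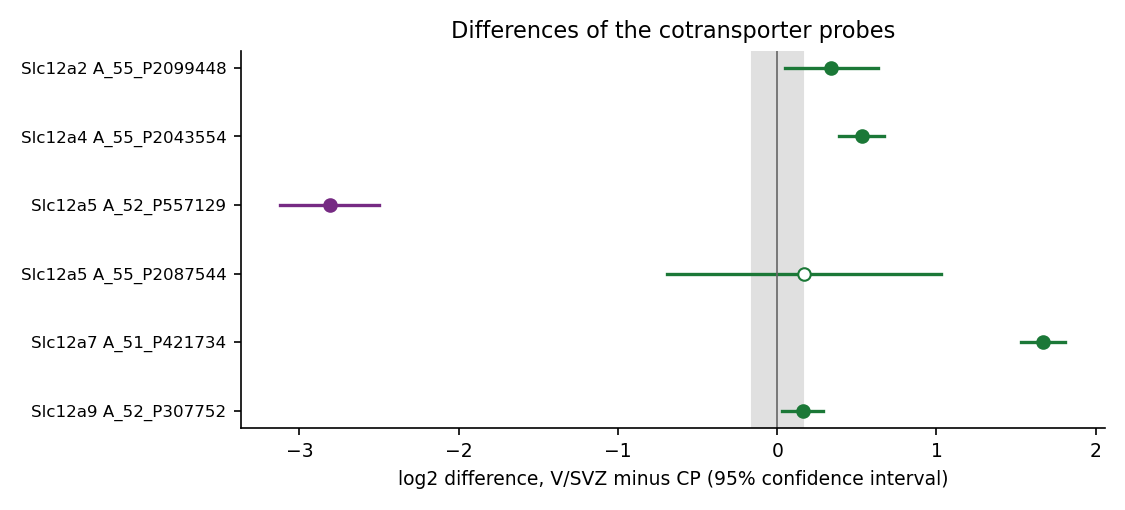
Log2 difference, V/SVZ minus CP, with its 95% confidence interval for each member probe, where filled circles passed the limma test and the open circle did not. The grey band spans the largest difference between the slides, 0.16, of the spike-ins detected on all arrays. It leaves out dimmer spike-ins and holds the estimate of Slc12a9 (0.16), with that of the dim Slc12a5 probe (0.17) just outside it.

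The balance of NKCC1 to KCC2 transcripts was compared within each array, which removes any scaling between arrays. The log2 ratio of the Slc12a2 to the bright Slc12a5 signal, taken relative to the mean of the 8 arrays, was 1.48, 1.31, 1.52 and 2.0 in V/SVZ and -1.74, -1.82, -1.34 and -1.40 in CP. All V/SVZ arrays lay above all CP arrays. The ratio was 8.88-fold higher in V/SVZ, a log2 difference of 3.15 (SD 0.3 in V/SVZ and 0.24 in CP, n = 4 per tissue, 2-sided exact permutation p = 0.0286, the smallest that 70 splits allow). The log2 difference was 1.66 with the mean of both Slc12a5 probes, at the same exact permutation p = 0.0286. Paired by replicate number as a block, the exact sign-flip p was 0.125, the smallest that 4 pairs allow. Most of the 3.15 is the -2.81 of Slc12a5. Signals of different probes are not on a common scale, so the ratio shows unequal change and not which transcript is more abundant.

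**Figure D3:**
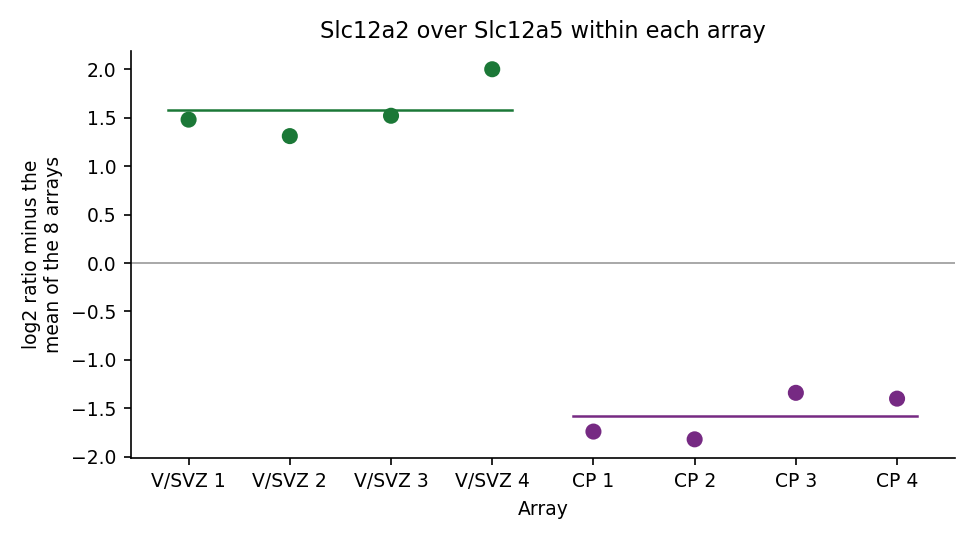
Log2 ratio of the Slc12a2 signal to the bright Slc12a5 signal on each array, minus the mean of the 8 arrays, with lines at the tissue means. The V/SVZ arrays lie between 1.31 and 2.0 and the CP arrays between -1.82 and -1.34.

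Outside the members, other genes of the family were also on the array. The probes of Slc12a8 disagreed. A_55_P2022890 was 2.62-fold higher in CP (170, 148, 139 and 164 against 448, 380, 421 and 381), while A_55_P2022895 was 1.16-fold higher in V/SVZ, a call lost with spike-in scaling (0.14 on the log2 scale, adjusted p = 0.112), and turned to -0.12 after normexp. The kidney cotransporter genes Slc12a1 and Slc12a3 were not tested: Slc12a3 was well above background on no array, and Slc12a1 on 1, a V/SVZ array at 130 intensity units where the other 7 read 6 to 16.

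By root mean square distance of the centred log2 values over the 8 arrays, among 16445 probes well above background on all arrays, the genes most like Slc12a2 were Plcl1 (distance 0.055), Pcbp2 (0.066) and Tmem230 (0.07), with log2 differences of 0.36, 0.37 and 0.33. Those most like the bright Slc12a5 probe, among 16444 probes, were Drc1 (0.11), Celf6 (0.114) and Eml1 (0.122), with log2 differences of -2.85, -2.59 and -2.81. These are distances between patterns on the same 8 arrays and carry no test.

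The kinases that control the cotransporters differed in both directions. WNK kinases act through SPAK (Stk39) and OSR1 (Oxsr1), whose phosphorylation activates NKCC1 and inhibits the KCC exporters. Of 10 genes of this pathway tested, 5 were higher in V/SVZ, 4 higher in CP and 1 was not called, with a median of 0.20 on the log2 scale. Over all 19225 genes tested at their brightest probe, 79.5% were called, 35% with the higher value in V/SVZ and 44.6% in CP. Of these 19225, 13824 had a symbol, and the others were counted by their accession.

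Wnk1 was 1.51-fold higher in V/SVZ (13387, 13587, 13345 and 12897 against 8462, 8955, 8766 and 9110), Oxsr1 1.52-fold, Stk39 1.32-fold and Cab39l, a scaffold of these kinases, 1.25-fold. Wnk2 was 1.48-fold higher in CP and Cab39, the other scaffold, 1.32-fold. Sgk1, a kinase of the same signalling network, had the largest difference, 6.38-fold higher in CP (508, 481, 497 and 545 against 3154, 3399, 3016 and 3376). Klhl2, an adaptor that directs WNK kinases to degradation, was 2.64-fold higher in CP. Nedd4l, a ubiquitin ligase, was 1.37-fold higher in V/SVZ at its brightest probe but had a second probe at -1.29 on the log2 scale. Cul3, the scaffold of the ligase with Klhl2, was not called (0.08, adjusted p = 0.072), but was called higher in V/SVZ with no scaling (0.29, adjusted p = 0.000246), with array weights (0.08, adjusted p = 0.03), without V/SVZ 3 (0.10, adjusted p = 0.037) and in the authors' deposited table with its direction turned (0.09, adjusted p = 0.0463). Adjusted p of the called genes, all from limma, ranged from 3.13e-09 for Sgk1 to 0.00335 for Stk39, and Wnk4 was well above background on no array.

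Partners of the KCC2 protein and factors known to act on Slc12a5 transcription were mixed. Of 5 partner genes tested, 2 were higher in V/SVZ, 1 higher in CP and 2 were not called at the brightest probe. Over every tested probe, 4 of the 5 had a probe called higher in CP and 2 had one called higher in V/SVZ. Neto2, an auxiliary subunit of kainate receptors that binds KCC2, was 6.94-fold higher in CP (1667, 1789, 1670 and 1591 against 12689, 10734, 11887 and 11332). Its second probe gave -1.67 on the log2 scale. Named after their values were seen, Pacsin1, Arhgef7 and Grik2 had log2 differences of 0.13, 0.33 and 0.11 at the brightest probe but -3.54, -2.13 and -0.35 at the other, each of the latter called. Ckb, the brain creatine kinase, was 1.74-fold higher in V/SVZ. Of 7 transcription factor and neurotrophin pathway genes, CP had the higher value for 3 and V/SVZ for the other 4. Neurod2, a neuronal factor, was 2.12-fold higher in CP. Ntrk2, the BDNF receptor gene, was 2.99-fold higher in V/SVZ at its brightest probe, with other probes at -4.07 and 2.78 on the log2 scale and 0.10 (adjusted p = 0.233) for the mean of its probes.

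Named after their values were seen, Rest, a repressor of neuronal genes, was 1.86-fold higher in V/SVZ (1614, 1505, 1655 and 1710 against 886, 828, 882 and 883, limma adjusted p = 6.33e-07). Usf1 was 1.31-fold higher in CP (log2 difference -0.39, adjusted p = 0.0221), a call lost with median scaling (-0.30, adjusted p = 0.114), with no scaling (-0.18, adjusted p = 0.227), after normexp (-0.14, adjusted p = 0.306) and without CP 1, CP 2 or CP 4 (adjusted p from 0.0504 to 0.0573). Usf2 was 1.19-fold higher in V/SVZ, with a second probe at -0.70. No binding was measured.

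GABA-A and glycine receptor subunits, the channels through which the chloride gradient acts, were mostly higher in CP, as the bright Slc12a5 probe was. Of 13 tested, 11 were higher in CP, 1 higher in V/SVZ and 1 was not called, with a median of -3.12 on the log2 scale beside -0.09 over all genes. Gabrb2 read 441, 446, 518 and 486 in V/SVZ and 12043, 11585, 13073 and 13309 in CP (26.5-fold), and Gabra3 was 15.8-fold higher in CP. Gabra4 was 1.86-fold higher in V/SVZ. The genes of GABA synthesis, uptake and breakdown divided into 4 higher in CP and 3 higher in V/SVZ, the latter including the catabolic enzyme genes Aldh5a1 (2.59-fold) and Abat (2.37-fold).

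Other chloride and bicarbonate transporters and channels went both ways. Of 22 tested, 7 were higher in V/SVZ, 9 higher in CP and 6 were not called. Ttyh1, a tweety family membrane protein of glia and progenitors, was 9.56-fold and Clic1 6.75-fold higher in V/SVZ. The bicarbonate-linked transporter genes Slc4a8 (4.45-fold) and Slc4a10 (4.29-fold), named after their values were seen, were higher in CP. Of 9 sodium pump subunit genes, which maintain the cation gradients the cotransporters draw on, 5 were higher in V/SVZ, 3 higher in CP and 1 was not called. Atp1b1, a beta subunit, was 2.29-fold higher in CP. Fxyd7, a pump regulator, was not well above background on any V/SVZ array and was at least 3.19-fold higher in CP.

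**Figure D4:**
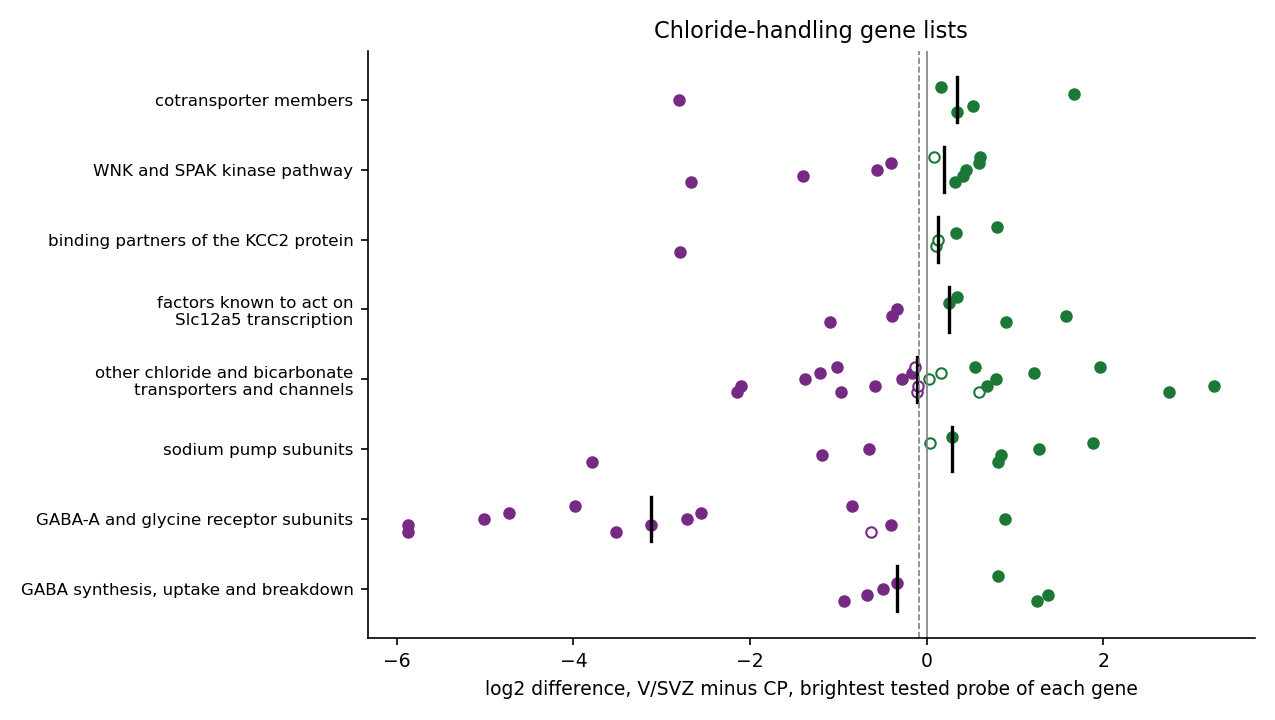
Log2 difference, V/SVZ minus CP, of each tested gene at its brightest probe, by list, with filled circles for genes that passed the limma test, open circles for those that did not, and black bars at list medians. The dashed line marks the median of all genes, -0.09. The GABA-A and glycine receptor list has a median of -3.12, and the cotransporters run from -2.81 (Slc12a5) to 1.67 (Slc12a7).

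Some markers of cell types other than progenitors and projection neurons were also called. The share called was 50% for endothelial and mural and for meningeal markers, and 66.7% for choroid plexus and oligodendrocyte markers. It was 75% for red blood cell, 80% for microglia and 100% for interneuron markers, beside 79.5% of all genes tested. Of 5 microglia markers 4 were higher in V/SVZ (P2ry12 5.22-fold), with a summed signal of 16906 to 23738 against 5510 to 7783 in CP. Red blood cell markers were higher in V/SVZ in 3 of 4 cases (330078 to 420766 against 247913 to 277137), Hba-a1 by 1.40-fold, while Epb42 did not clear background on the 8 arrays. Of 8 endothelial and mural markers 4 were higher in V/SVZ, Pdgfrb by 1.90-fold (17926 to 20010 against 14117 to 16151). Their part in the V/SVZ values of Slc12a2, Slc12a4, Slc12a7 and Slc12a9 was not tested. Of 6 choroid plexus markers, a tissue rich in NKCC1, Ttr, Kl and Clic6 were not well above background on any array, Aqp1 was 2.17-fold higher in V/SVZ, Folr1 was 1.56-fold higher in CP, Kcnj13 was not called (-0.56 on the log2 scale), and the summed signal was 340 to 507 in V/SVZ and 370 to 482 in CP. Interneuron markers had 3 higher in each tissue, with a summed signal of 14647 to 16294 in V/SVZ and 39673 to 51671 in CP. Npy, 38.0-fold higher in CP, alone averaged 25464 there, while Dlx1, Dlx2 and Dlx5 were higher in V/SVZ. Signals of different probes are not on a common scale, so the summed signals follow the brightest probes and do not measure a cell type. Oligodendrocyte lineage markers had 2 genes higher in each (5154 to 5990 against 9188 to 9436, Mbp 2.98-fold higher in CP), and meningeal fibroblast markers 1 higher in V/SVZ and 2 in CP (1579 to 2507 against 1790 to 2150, Lum at least 4.24-fold higher in CP). Their part in the CP value of Slc12a5 was not tested.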

How the data were processed

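Expression was measured from 100 ng of total RNA per sample. Per the file headers, Feature Extraction 10.7.1.1 made the deposited intensity values, its processed signal. What that signal was corrected for is not recorded in the sources used here. The authors' deposited table of centred log2 values (17185 rows) served only as an alternative, since its columns correlated at -0.98 to -0.97 with the arrays they are named for. Each column instead correlated at 1, as rounded, with the array of like number from the opposite layer. The values therefore match the scanner files once the layer names of the columns are exchanged. How the names came to differ was not tested. The scaling and filter of the deposited table are unknown.

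Control and outlier spots (142 to 258 per array) were left out, and log2 values had the 75th percentile of their array subtracted. A printed signal is that value returned to intensity units at the mean percentile of the 8 arrays. Probes well above background on all 4 arrays of a tissue, with values on at least 3 of each (23853), were tested with limma 3.58.1 in R 4.3.3 (lmFit, then eBayes), adjusting by Benjamini-Hochberg over all of them at 0.05. The procedure was tested on simulated data in which few probes changed, unlike here, and to which no slide effect was added. Lists used the brightest tested probe per gene. "At least" compares the mean of the bright tissue with, per array, the higher of the dim value and the lowest signal well above background. Symbols came from RefSeq of assembly GRCm38.p6 (26761 probes matched).

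The members and lists were chosen with earlier results of these data known. Named genes were all tested Slc12 and WNK pathway genes, the 2 largest called differences per further pathway list and the gene furthest against its majority, the largest called difference per marker list, and the 3 patterns nearest to Slc12a2 and to Slc12a5. Some genes under this rule are not reported here. Replicate numbers come from the titles and match the position on the slide. Deviations of same-numbered arrays correlated at 0.34, 0.31, 0.12 and 0.21, and V/SVZ 3 correlated best with CP 2. Since number and position coincide, these correlations cannot tell paired samples from an effect of position. A fit with the number as a block was an alternative. Others covered scaling, background, filter, probes, variance model, array weights and each array left out. The number of arrays limits the precision.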

Additional observations from a re-analysis of the deposited data

Results flagged for a closer look

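On array CP 3, Slc12a7 (probe A_51_P421734) read 1452 against 1272 to 1296 on the other CP arrays. On the log2 scale its gap to the nearest array was 0.857 of the range of the 4 CP arrays, above the critical value of 0.829 for 4 samples. It was the only 1 of 22 groups of 4 arrays (10 tested Slc12 probes and the ratio, in each tissue) past that value, where chance gives about 1 in 20. Without CP 3 the Slc12a7 difference was 1.71 on the log2 scale.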

How the results depend on the processing

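Over 22 alternative settings, Slc12a4 (0.46 to 0.74 on the log2 scale), Slc12a7 (1.6 to 1.88) and the bright Slc12a5 probe (-2.90 to -1.32) kept their direction and their call. Slc12a2 kept its direction in all 21 settings that measured it (0.20 to 0.55) and lost its call in 9. Slc12a9 kept its direction in 22 (0.09 to 0.37) and lost its call in 8. The count of called member probes was 3 of 6 with spike-in scaling and with no filter, and 3 to 5 with each array left out. The dim Slc12a5 probe turned to -0.09 after normexp and ran from -0.03 to 0.49 with each array left out. After normexp the Slc12a8 probe A_55_P2022895 turned to -0.12 and Cul3 to -0.01, and with the mean of the probes of a gene Nedd4l turned to -0.42 and Usf2 to -0.23. The within-array ratio was 3.15 with the replicate block, where the exact sign-flip p was 0.125, and 3.01 to 3.24 with each array left out, at exact permutation p = 0.0286. The block changed no call of a member probe. The cause of these changes was not tested. Slc12a2 has no row in the deposited table used here, so the ratio could not be computed from it. The count of pathway genes called ran from 57 to 67 over the settings, against 64 of 75 in the main analysis, where 79.5% of all genes were called. The number of pathway genes tested was not the same in every setting. Signals near background, as of the dim Slc12a5 probe, limit what can be told apart.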
